A study of Mus musculus with 24 samples.

Results

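The glycolysis enzymes hexokinase 2 (Hk2), liver-type phosphofructokinase (Pfkl), aldolase A (Aldoa), triosephosphate isomerase (Tpi1), glyceraldehyde-3-phosphate dehydrogenase (Gapdh), phosphoglycerate kinase 1 (Pgk1), enolase 1 (Eno1), pyruvate kinase M (Pkm) and lactate dehydrogenase A (Ldha) were followed with Hif1a across microglia sorted from single mouse retinas. These 10 genes were chosen by name, as a pathway and its regulator, with earlier results of these data known. They come from the 47729 gene IDs in each deposited table, and all 10 had enough counts to be tested. In the groups as a whole none of them differed beyond the spread between animals. Within the oldest DBA/2J mice, Gapdh, Ldha and Eno1 were higher in every retina graded moderate than in every retina graded mild or severe. Of all 15959 genes tested by grade, 80 (0.501%) were higher in the same way. A comparison of moderate with the mean of mild and severe was added after the Gapdh values had been seen. In it no gene passed the adjusted test by edgeR, and DESeq2 called 404 genes, among them Gapdh and Ldha.

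Glycolysis splits glucose into pyruvate in the cytosol and yields ATP without oxygen, and Ldha turns the pyruvate into lactate. Hif1a encodes the oxygen-regulated subunit of hypoxia-inducible factor, which is destroyed when oxygen is plentiful and otherwise binds DNA with Arnt and raises transcription of many glycolytic enzymes. That control acts mostly on the protein, which the RNA level measured here does not show. Macrophages and microglia are known to rely more on glycolysis when activated, and the retina, where photoreceptors make lactate in quantity, is among the most glycolytic tissues of the body.

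The 24 retinas came from 15 animals. With 5 animals per group there were 10 retinas of 12-month-old DBA/2J mice (genotype Gpnmb-/- Tyrp1b-/-), 5 retinas of 6-month-old DBA/2J mice of the same genotype, labelled as early disease and with 1 eye each, and 9 retinas of 12-month-old control mice, called Gpnmb+ here, whose genotype is Gpnmb+/+ Tyrp1b-/-. All groups therefore carry the Tyrp1b mutation, and 6-month DBA/2J and Gpnmb+ mice differ in age and genotype together. DBA/2J mice spontaneously develop a pigmentary form of glaucoma with age. Each retina of the older DBA/2J mice carries a grade in the labels: 3 retinas of 2 animals were mild, 4 of 3 animals moderate and 3 of 2 animals severe, and animals 1 and 5 had eyes of different grades. Cells were sorted as CD11b+, Fcrls+ and Ly6c-, with 100 to 600 cells per retina.

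Totals of expected counts, the estimated reads per gene, ran between 977886 and 20081114 per retina. Of the retinas, 5 held fewer than 10000 genes with counts, and all 5 were Gpnmb+ (both eyes of animals 1 and 2, and 1 eye of animal 3). Summed CPM (counts per 1e6) of the 8 microglia markers ranged between 26319 and 36217 for 12-month DBA/2J animals, between 29828 and 32944 for the 6-month animals and between 18386 and 32068 for Gpnmb+ animals, so the sorted type was present throughout. Gpnmb, the gene that separates the strains, had 0 counts in all 10 and all 5 DBA/2J retinas and counts in 1 of the 9 Gpnmb+ retinas (459 counts, 30.9 CPM), so its RNA checks the label of 1 retina only. Summed CPM of the 14 rod photoreceptor markers ranged between 556 and 2862 for 12-month DBA/2J, between 209 and 2280 for 6-month DBA/2J and between 451 and 9612 for Gpnmb+ animals, and the highest value was Gpnmb+ animal 2, whose retinas held 3469 and 7134 genes.

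Several of these enzymes have processed pseudogenes, copies of the spliced transcript elsewhere in the genome, which a short read cannot always be told from. The 3 pairs below are shown because their likeness bears on how far the counts of Gapdh, Pgk1 and Eno1 can be trusted. The bases are those of the reference build and were not read from these mice. Each line is 60 bases of coding strand from GENCODE transcripts on GRCm38, in lower case, and capitals mark the bases at which gene and pseudogene differ.

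Gapdh: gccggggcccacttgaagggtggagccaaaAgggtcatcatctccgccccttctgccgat
Gm13394: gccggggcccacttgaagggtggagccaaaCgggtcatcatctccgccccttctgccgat
Pgk1: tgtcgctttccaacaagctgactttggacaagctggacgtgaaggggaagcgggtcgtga
Pgk1-rs7: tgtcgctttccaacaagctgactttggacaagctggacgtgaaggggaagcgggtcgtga
Eno1: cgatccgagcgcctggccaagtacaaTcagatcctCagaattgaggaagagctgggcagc
Gm4735: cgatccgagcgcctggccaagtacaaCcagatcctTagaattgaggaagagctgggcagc

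The Gapdh window (coding bases 394 to 453) spans an exon junction between chr6:125162987-125163144 on the minus strand, whereas Gm13394 holds it unbroken at chr2:28934235-28934294, also minus. Counted from 1 at the 5′ end of the window, the difference is A31C, and it is the single one over 1000 aligned bases. Pgk1 (exon, chrX:106187252-106187311, plus strand) and Pgk1-rs7 (chr12:10900181-10900240, minus strand) have no difference over 1255 aligned bases. The deposited transcript length of Pgk1 was 1440 to 1825 bases, so part of it lies outside that stretch. Eno1 (coding bases 1198 to 1257, across a junction within chr4:150248082-150248507, plus strand) and Gm4735 (chr2:80838338-80838397, plus strand) differ by T27C and C36T in the window and at 5 of 1302 bases in all.

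The deposited counts gave these copies a large share. Of the counts in the Gapdh family, 43.7% lay on pseudogenes, of which 319 were found and 259 had counts. Gm13394 alone held 6635 counts, beside 19669 on Gapdh itself. For Pgk1 the share was 41.6%, nearly all on Pgk1-rs7 with 6035 counts, beside 8963 on Pgk1. For Eno1 it was 18% over 8 pseudogenes, led by Gm4735 with 6483 counts, beside 36214 on Eno1. The protein-coding copy Eno1b on chromosome 18, 99.5% identical to Eno1 over 1736 bases, held a further 23277 counts. The share was smaller for Pkm (4.53%, mostly Gm6560), Ldha (3.64%, over 18 pseudogenes that include Gm13315), Aldoa (0.455%) and Tpi1 (0.389%), and no pseudogene was found for Hk2, Pfkl or Hif1a. How reads matching several copies were shared out is not given in the sources used here, so the levels of Gapdh, Pgk1 and Eno1 are uncertain.

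Whether the share moved with the groups was tested over animals by an exact two-sided permutation test, 21 tests in all. For Gapdh the pseudogene share was 44.4% ± 5.54 in 12-month DBA/2J, 42.1% ± 7.02 in 6-month DBA/2J and 43.8% ± 4.18 in Gpnmb+ animals (SD, n = 5 each), differences within the spread between animals. For Pgk1 it was 41.9% ± 3.67 in 12-month DBA/2J, 44.7% ± 4.08 in 6-month DBA/2J and 35.5% ± 8.98 in Gpnmb+ animals (6-month DBA/2J against Gpnmb+, exact permutation p = 0.0714, adjusted 0.375). For Ldha it was 1.61% ± 0.506 in 12-month DBA/2J, 3.81% ± 1.54 in 6-month DBA/2J and 10.4% ± 7.53 in Gpnmb+ animals. The exact permutation p for Ldha was 0.0397 for 12-month DBA/2J against Gpnmb+ and 0.0238 for 12-month against 6-month DBA/2J, and 0.333 for both after Benjamini-Hochberg adjustment over the 21 tests. For Tpi1 the shares were 0.517% ± 0.246 in 12-month DBA/2J and 0.185% ± 0.187 in Gpnmb+ animals (exact permutation p = 0.0476, adjusted 0.333). Eno1b took 40.4% ± 1.85 of the counts on Eno1 and Eno1b in 12-month DBA/2J, 38.8% ± 2.60 in 6-month DBA/2J and 36.4% ± 5.22 in Gpnmb+ animals (SD, n = 5 each).

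**Figure D1:**
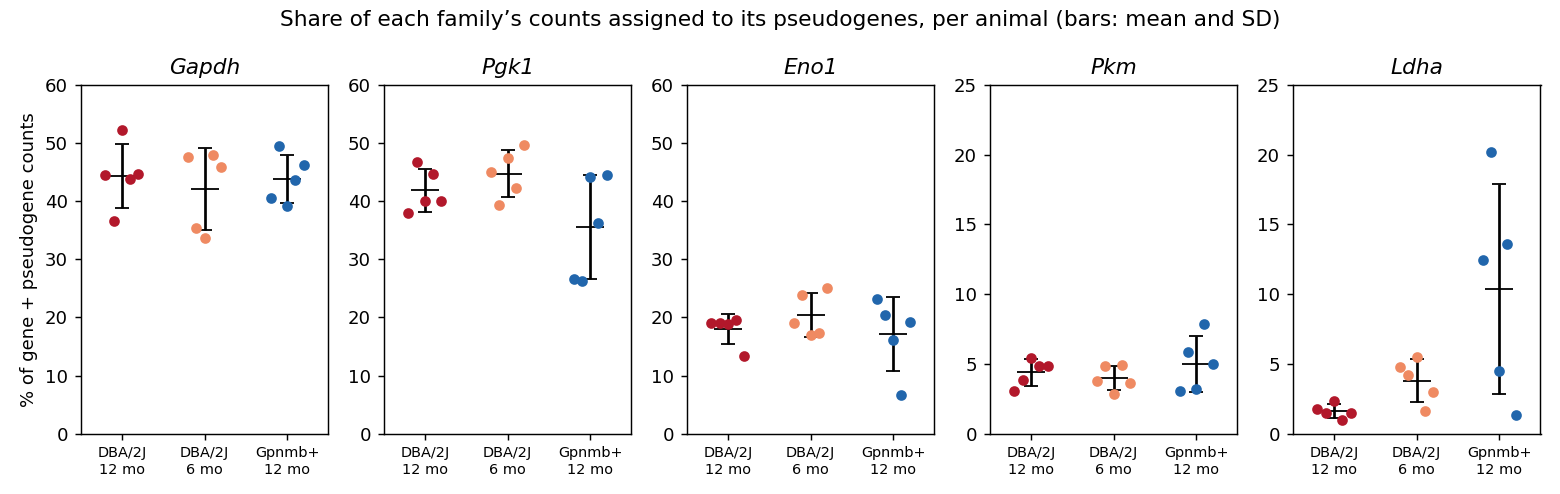
Percent of each enzyme family's counts that lie on its pseudogenes, 1 point per animal, with 12-month DBA/2J left, then 6-month DBA/2J and Gpnmb+; bars are the mean and SD. Gapdh and Pgk1 have the largest shares in each group, Eno1 comes next and the others are lower, and Ldha in Gpnmb+ animals lies between 1.33% and 20.2%.

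Compared per transcript length, as deposited TPM (transcripts per 1e6), the members fell into a high, a middle and a low set. In 12-month DBA/2J animals Aldoa, which splits fructose bisphosphate, came first with 285 ± 60.01 TPM (SD, n = 5), ahead of Ldha with 242 ± 56.7 TPM. Pkm with 120 ± 54.2, Tpi1 with 114 ± 34.5, Gapdh with 108 ± 35.1 and Eno1 with 104 ± 44.2 TPM followed, neighbours that lie within 1 SD of each other. Hk2, which traps glucose in the cell, had 51.5 ± 16.3 TPM, Hif1a 35.5 ± 18.5, Pfkl 23.3 ± 14.2 and Pgk1 19.99 ± 8.48 TPM.

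The same order opened with Aldoa and Ldha in the other groups, at 292 ± 76.0 and 253 ± 58.7 TPM in 6-month DBA/2J and 332 ± 218 and 199 ± 89.1 TPM in Gpnmb+ animals. By mean TPM Pgk1 was last in 12-month DBA/2J and had 70.3 ± 81.6 TPM in Gpnmb+ animals, where the median was 33.8 TPM and the eyes of animal 2 had 431 and 0 TPM. Over all retinas Aldoa stood at percentile 97.6 of the 14525 genes above 1 TPM, Gapdh at percentile 93.2 and Pfkl, the lowest, at percentile 72.7. TPM of Hk2 and Hif1a also depend on the transcript length in the files, which varied between retinas from 1124 to 5513 bases for Hk2 and from 798 to 4724 bases for Hif1a.

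**Figure D2:**
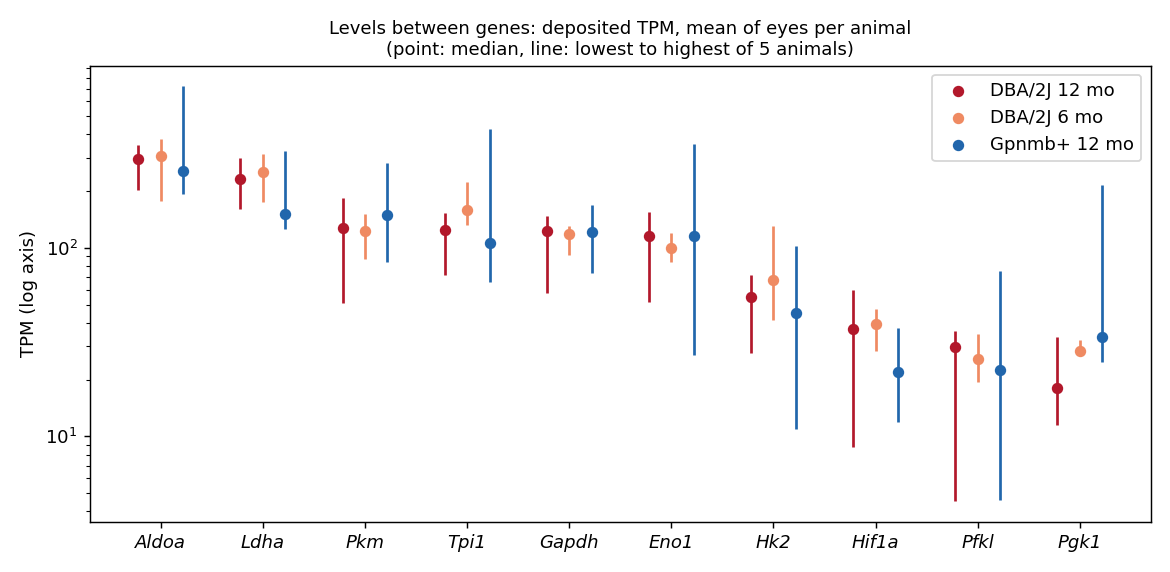
Deposited TPM of the 10 genes on a log axis, by group; points are the median of 5 animals and lines run between the lowest and the highest animal. Aldoa has the highest median in each group, ahead of Ldha, and Pkm, Tpi1, Gapdh and Eno1 overlap one another.

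The first comparison set 12-month DBA/2J against age-matched Gpnmb+ mice, 5 animals each with the eyes of an animal summed. None of the 10 genes passed edgeR's quasi-likelihood test, neither at an adjusted p under 0.05 nor at an unadjusted one. Of all 12977 genes tested, 0 passed at an adjusted p under 0.05 and 676, or 5.21%, at an unadjusted p under 0.05. By DESeq2, 108 genes were called and 1051 had an unadjusted p under 0.05. The log2 difference was positive for 5 members and negative for 5, with a median of -0.025, beside 0.054 over all genes tested and 52.5% of them positive. No member's groups were apart, against 0.832% of all genes with every 12-month DBA/2J animal above and 0.285% with every one below the Gpnmb+ animals. The 6 markers of monocytes and recruited macrophages summed to between 481 and 1363 CPM per 12-month DBA/2J animal (Ly6c2 and Plac8 at 0 in all 5), to between 47.2 and 332 CPM per 6-month DBA/2J animal and to between 116 and 506 CPM per Gpnmb+ animal, and their part in the members' values was not tested. In such bulk samples fewer cells of a type and less RNA per cell cannot be told apart.

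At the entry to the pathway, Hk2 averaged 118 ± 29.0 CPM in 12-month DBA/2J and 98.0 ± 56.0 CPM in Gpnmb+ animals (SD, n = 5 each), a log2 difference of 0.27 ± 0.37 (SE). Pfkl, which commits sugar to glycolysis, averaged 56.9 ± 30.9 CPM in 12-month DBA/2J and 92.0 ± 94.7 CPM in Gpnmb+ animals. Both sets overlap widely, and for Pfkl 1 Gpnmb+ animal with 255 CPM sets most of the difference of -0.69 ± 0.60 on the log2 scale, which was 0.15 without that animal.

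In the middle of the pathway, Aldoa differed by 0.11 ± 0.28 (SE) and Tpi1, which interconverts the triose phosphates, by -0.25 ± 0.37 on the log2 scale. Without the 5 retinas with few genes Aldoa differed by 0.51 (edgeR unadjusted p = 0.0494, adjusted 0.674). Gapdh, often used as a reference gene, had 85.2, 118, 61.6, 53.3 and 78.6 CPM in the 12-month DBA/2J animals, against 60.9, 83.3, 136, 63.6 and 74.7 CPM in the Gpnmb+ animals. The ranges lie over each other, with the highest Gapdh value in a Gpnmb+ and the lowest in a DBA/2J animal, and the log2 difference was -0.080 ± 0.33 (SE).

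Pgk1, which makes the first ATP of the pathway, had 28.1, 22.5, 17.8, 40.5 and 43.2 CPM in 12-month DBA/2J, against 41.0, 102, 60.5, 32.0 and 38.5 CPM in Gpnmb+ animals. Below every Gpnmb+ animal lay 3 of the 5 DBA/2J animals, and the others were within the Gpnmb+ range. Single retinas were uneven for Pgk1. It had 0 counts in 1 eye each of 12-month DBA/2J animals 3 and 4, and 10 counts in 1 eye of DBA/2J animal 5. The eyes of Gpnmb+ animal 2, the highest animal, had 511 and 0 counts. Its log2 difference of -0.85 ± 0.46 (SE) had the smallest p of the members, 0.0807 unadjusted and 0.999 adjusted (edgeR). Without the 2 retinas under 20% of the median total it was -0.068, and with the pseudogene counts added -0.69. With each retina entered under a random animal effect it was -1.89 (p = 0.144), and DESeq2 gave -0.95 with an unadjusted p of 0.0258 (adjusted 0.492).

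Ldha, the last step to lactate, had 272, 341, 226, 209 and 292 CPM in 12-month DBA/2J, against 182, 177, 259, 116 and 244 CPM in Gpnmb+ animals. Of the 5 DBA/2J animals, 3 were above every Gpnmb+ animal. The log2 difference was 0.45 ± 0.25 (SE), with an edgeR p of 0.0904 unadjusted and 0.999 adjusted. Without the 5 retinas with few genes it was 1.10. That filter drops the eye of Gpnmb+ animal 3 with 585 CPM of Ldha and keeps its other eye, with 17.6 CPM. It also drops both eyes of Gpnmb+ animal 2, which had 0 and 237 CPM. With pseudogene and coding copy counts added the log2 difference was 0.33, and without Gpnmb+ animal 3 it was 0.58 (edgeR unadjusted p = 0.0466, adjusted 0.667).

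Eno1 differed by -0.30 ± 0.43 and Pkm by 0.029 ± 0.27 (SE) on the log2 scale. Hif1a averaged 77.9 ± 42.5 CPM in 12-month DBA/2J and 74.6 ± 25.9 CPM in Gpnmb+ animals (SD, n = 5 each), a log2 difference of 0.063 ± 0.40. In 12-month DBA/2J Hif1a was split between 33.2 and 34.2 CPM in animals 4 and 1 and 92.0 to 129 CPM in the others. Leaving out the 5 Gpnmb+ retinas with few genes turned 4 of the negative differences positive: Gapdh 0.11, Eno1 0.24, Tpi1 0.32 and Pfkl 0.065. Leaving out the 2 retinas of lowest depth instead left these 4 negative, at -0.052, -0.31, -0.063 and -0.84 in the same order.

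**Figure D3:**
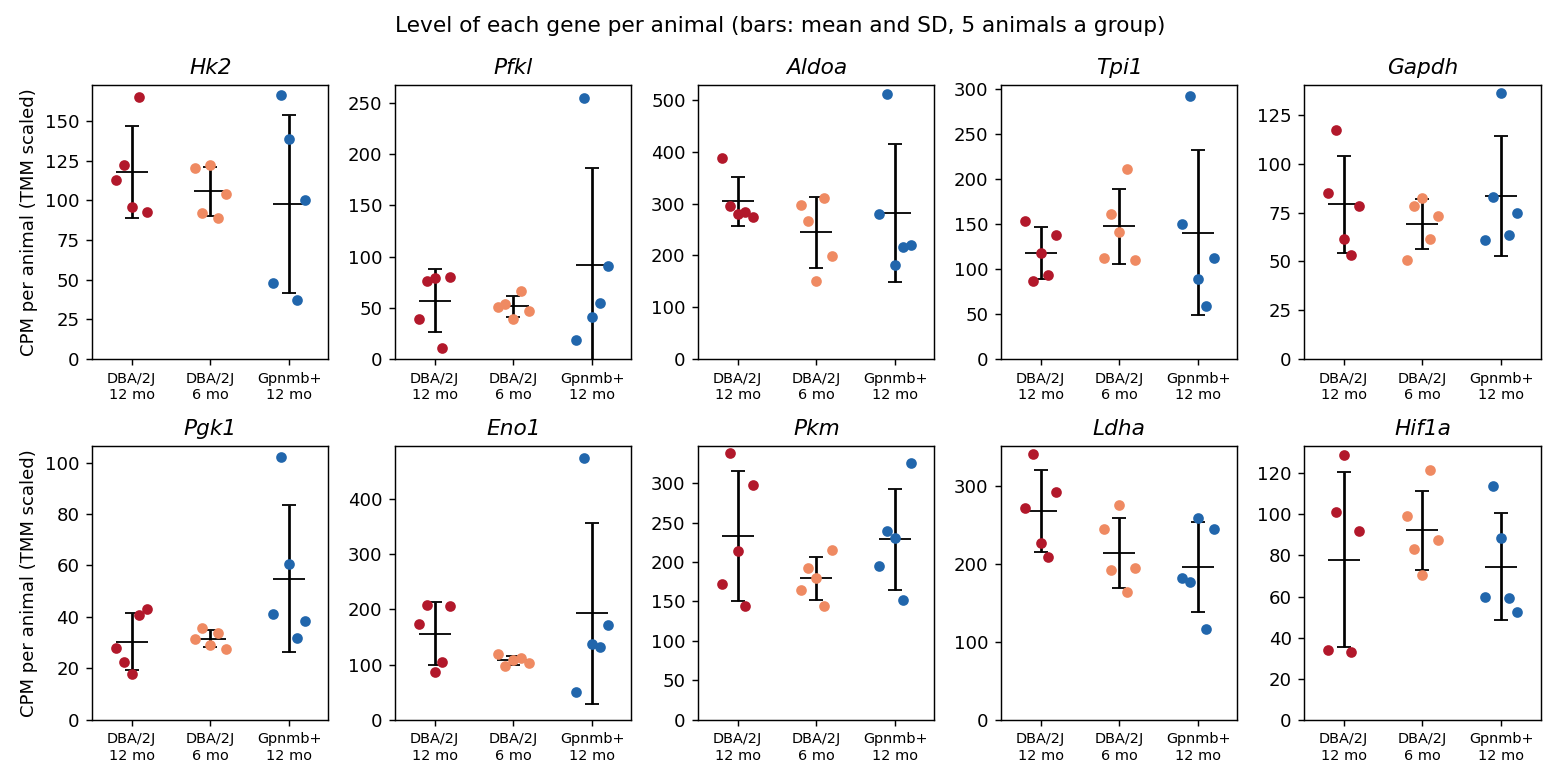
CPM per animal of the 10 genes, eyes summed, with 12-month DBA/2J left, then 6-month DBA/2J and Gpnmb+; 1 point per animal, with bars for the mean and SD. The groups overlap for every gene, and the Gpnmb+ animals scatter most except for Pkm and Hif1a, where the 12-month DBA/2J animals do.

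Compared with 6-month DBA/2J mice of the same genotype, 12-month DBA/2J microglia also gave no member with an unadjusted p under 0.05, against 3.65% of the genes tested (474 of 12977, 0 at an adjusted p under 0.05 by edgeR and 61 by DESeq2, which gave 667 with an unadjusted p under 0.05). At 12 months 7 members were higher and 3 lower, where 50.6% of all genes were higher, and the members' median log2 difference was 0.18 against 0.0099 over all genes. Eno1 had the largest difference, 0.53 ± 0.44 (SE), with 173, 209, 86.0, 105 and 207 CPM at 12 months, against 118, 97.0, 108, 112 and 103 CPM at 6 months. The 6-month animals lie close together and 1 of the 12-month animals lies below all of them.

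Pkm differed by 0.38 ± 0.27, Ldha by 0.32 ± 0.25, Aldoa by 0.32 ± 0.28, Gapdh by 0.19 ± 0.33, Hk2 by 0.16 ± 0.37 and Pfkl by 0.15 ± 0.60 on the log2 scale (SE). The lower ones were Pgk1 with -0.051 ± 0.46, Hif1a with -0.24 ± 0.40 and Tpi1 with -0.32 ± 0.37. For Pgk1 a fit of single retinas with a random animal effect gave -2.002 (p = 0.127). Every member's animals overlapped between the ages, where 1.43% of all genes were fully higher and 1.02% fully lower at 12 months.

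Between 6-month DBA/2J and Gpnmb+ mice, which share the Gpnmb+ animals with the first comparison and the 6-month animals with the second, none of the members had an unadjusted p under 0.05, against 3.77% of the genes (489 of 12977, 0 at an adjusted p under 0.05 by edgeR and 57 by DESeq2, which gave 830 with an unadjusted p under 0.05). Eno1 at -0.84 ± 0.44, Pfkl at -0.84 ± 0.61, Pgk1 at -0.80 ± 0.46, Pkm at -0.35 ± 0.27, Gapdh at -0.27 ± 0.33 and Aldoa at -0.21 ± 0.28 were lower on the log2 scale (SE). Hif1a at 0.31 ± 0.40, Ldha at 0.13 ± 0.25, Hk2 at 0.11 ± 0.37 and Tpi1 at 0.068 ± 0.37 were higher. Thus 4 members were positive, where 51.3% of all genes were, and no member's animals stood apart, against 0.878% of genes fully higher and 0.239% fully lower in 6-month DBA/2J. Without Gpnmb+ animal 2 Eno1 was -0.18, and without Gpnmb+ animal 1 it was -1.08 (edgeR unadjusted p = 0.0116, adjusted 0.926). DESeq2 gave Eno1 and Pgk1 unadjusted p of 0.0406 and 0.0349 (adjusted 0.736 and 0.699). For Pgk1, 3 of the 5 animals at 6 months lay below every Gpnmb+ animal.

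The spread itself differed in size between the groups. The coefficient of variation of a member's CPM over 5 animals had a median of 33.4% for 12-month DBA/2J (15.7% to 54.6% over the 10 genes). It was 19.0% for 6-month DBA/2J (7.63% to 28.2%) and 49.6% for Gpnmb+ animals (28.2% to 103%). The 6-month animals have 1 retina each with totals of 12043911 to 17993059, whereas the 12-month groups contain thinner libraries, and the part of depth in this spread was not tested. Between the eyes of 1 animal, the larger CPM was a median 1.27 times the smaller for Gapdh, the steadiest member, and 2.99 times for Pfkl.

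**Figure D4:**
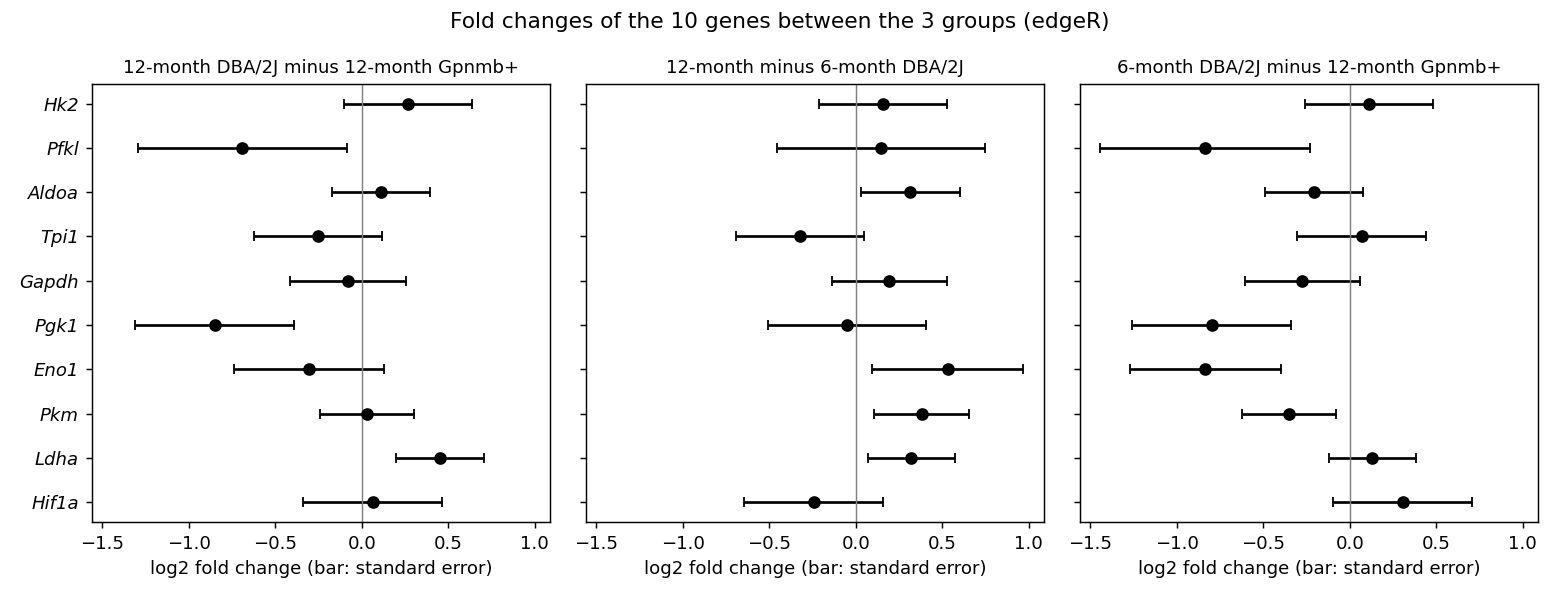
Log2 differences of the 10 genes in the 3 comparisons of groups, with bars of 1 standard error (edgeR). In each comparison the values lie on both sides of 0, and the largest in size, near -0.85, are Pgk1 in 12-month DBA/2J minus Gpnmb+ and Eno1 and Pfkl in 6-month DBA/2J minus Gpnmb+.

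The grades of the 12-month DBA/2J retinas showed a difference that the group means do not. Gapdh per retina was 35.2, 46.6 and 53.7 CPM in mild, 98.0, 110.0, 113 and 134 CPM in moderate, and 49.0, 59.2 and 63.5 CPM in severe retinas. All 4 moderate retinas were thus above all mild and severe ones. Ldha was 161 to 245 CPM in mild, 249.5 to 439 CPM in moderate and 150.1 to 242 CPM in severe retinas, and Eno1 38.2 to 107, 161 to 363 and 38.7 to 117 CPM. For Ldha the gap is narrow, since the lowest moderate retina is a few CPM above the highest mild one. These 3 of the 10 members stood apart in this way, against 0.501% of the 15959 genes tested (80 genes), and 0 of 10 lay fully below, against 0.520%. Moderate was set apart from the other grades after the Gapdh values had been seen. The count therefore describes a pattern already noticed, with Gapdh as 1 of the 3.

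The 2 animals with eyes of different grades set a moderate eye against the other eye of the same mouse. In both, the moderate eye was higher for 7 of the 10 members, against 21.0% of the genes tested, the exceptions being Pkm, Hk2 and Hif1a. That count rests on moderate retinas whose Gapdh values had already been seen, so it is not separate evidence. Gapdh in the moderate eye was 2.74 times that of the severe eye in animal 1 and 2.42 times that of the mild eye in animal 5. Ldha was 2.92 and 2.67 times as high, and Eno1 2.06 and 9.52 times. Hk2 was 0.543 times as high in the moderate as in the severe eye of animal 1, and Hif1a 0.605 times as high in the moderate as in the mild eye of animal 5.

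The comparison of moderate retinas with the mean of mild and severe ones was added after the Gapdh values by grade had been seen, so its p-values describe a pattern already noticed. Sums by animal and grade entered it (3 moderate, 2 mild and 2 severe), with animals 1 and 5 counted in 2 grades each. No gene passed at an adjusted p under 0.05 by edgeR, against 404 by DESeq2, and 1222 of 15959 genes, or 7.66%, had an unadjusted p under 0.05 (1556 by DESeq2). Higher in moderate at an unadjusted p under 0.05 were 5 of the 10 members, where 5.29% of all genes were. The members' median log2 difference was 0.87 and that of all genes 0.12, with 8 of 10 members and 53.5% of all genes positive. Of the 25 tested genes among other glycolytic isozymes, transporters and regulators, 2 were higher and 1 was lower in moderate by the same unadjusted rule. Of 16 other HIF targets 3 were higher and 2 lower, against 5.29% of all genes higher and 2.36% lower. Higher were also 2 of 8 pentose phosphate genes, 1 of 11 genes for pyruvate entry to mitochondria and 1 of 9 genes of the HIF machinery, with 0 lower in each.

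Eno1 had the largest of these 5 differences, 1.67 ± 0.54 (SE, edgeR unadjusted p = 0.006, adjusted 0.643). Gapdh was higher by 1.24 ± 0.44 (p = 0.0104) and Ldha by 1.14 ± 0.34 (p = 0.0031), with the same adjusted p by edgeR. In DESeq2 the adjusted p was 0.00941 for Gapdh and 0.00982 for Ldha. Aldoa at 0.92 ± 0.40 and Pkm at 0.80 ± 0.36 had unadjusted p of 0.0325 and 0.0377 by edgeR. Pgk1 at 1.59 ± 0.86, Tpi1 at 0.81 ± 0.49 and Pfkl at 0.71 ± 0.72 were positive without an unadjusted p under 0.05, and Hk2 at -0.28 ± 0.49 and Hif1a at -0.17 ± 0.56 were negative. Without animal 1 the unadjusted edgeR p was 0.0999 for Gapdh, 0.0531 for Ldha and 0.340 for Aldoa. Without animal 5 it was 0.0850 for Eno1, 0.103 for Aldoa and 0.243 for Pkm. It was also over 0.05 for Pkm without animal 2, 3 or 4 (0.0591 to 0.0964) and, narrowly, for Aldoa without animal 3. In the other direction, Pgk1 was 3.99 without animal 4 and 0.73 without animal 5, each leaving 1 mild sum. Without animal 2, Pgk1 was 1.96 and Tpi1 was 1.13 (edgeR unadjusted p = 0.0488 and 0.0458, adjusted 0.642 for both).

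**Figure D5:**
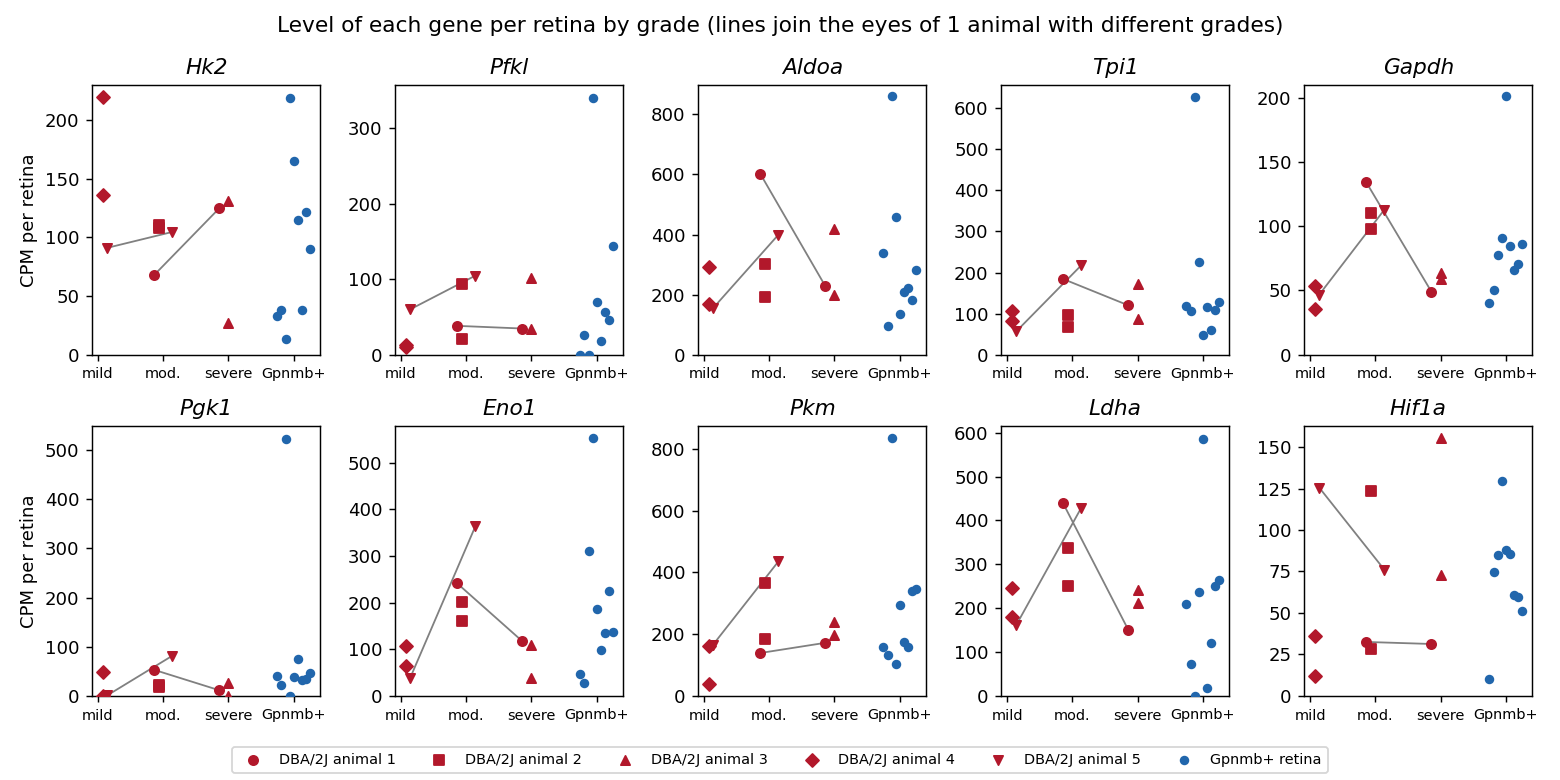
CPM per retina of the 10 genes in mild, moderate and severe 12-month DBA/2J retinas and in Gpnmb+ retinas, 1 point per retina; lines join the eyes of 1 animal that differ in grade. The 4 moderate retinas lie above the mild and severe ones for Gapdh, Ldha and Eno1, and among the Gpnmb+ retinas some are as high.

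Set against Gpnmb+ animals, each grade was tested as planned. In moderate retinas 1 member was higher at an unadjusted p under 0.05, against 4.75% of genes higher: Ldha averaged 415 ± 81.6 CPM over 3 sums in moderate and 193 ± 58.0 CPM over 5 Gpnmb+ animals (SD), a log2 difference of 1.11 ± 0.32 (SE, edgeR p = 0.00252, adjusted 0.579). DESeq2 gave Ldha an adjusted p of 0.0229 there. Aldoa at 0.72 ± 0.38, Gapdh at 0.61 ± 0.42, Eno1 at 0.57 ± 0.51, Pkm at 0.43 ± 0.34 and Tpi1 at 0.29 ± 0.47 were positive. Hk2 at 0.057 ± 0.47, Pgk1 at 0.0018 ± 0.82, Hif1a at -0.059 ± 0.54 and Pfkl at -0.28 ± 0.70 were near or below 0. Without the 5 Gpnmb+ retinas with few genes, Aldoa at 1.10, Eno1 at 1.07 and Gapdh at 0.78 had unadjusted edgeR p of 0.00848, 0.0144 and 0.0499 (adjusted 0.549 for each). Without Gpnmb+ animal 2 alone, Aldoa at 1.02 and Eno1 at 1.18 had 0.00824 and 0.011 (adjusted 0.556 for both).

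In mild retinas 1 member was lower at an unadjusted p under 0.05, against 2.75% of genes: Eno1 averaged 70.6 ± 49.1 CPM over 2 sums in mild and 186 ± 151 CPM in 5 Gpnmb+ animals (SD), a log2 difference of -1.40 ± 0.64 (SE, edgeR p = 0.0417, adjusted 0.795). Without Gpnmb+ animal 2, whose Eno1 is far above the others, it was -0.81 (p = 0.118). Without 12-month DBA/2J animal 5 it was -0.88 and without animal 4 it was -2.43, each leaving 1 mild sum. Without Gpnmb+ animal 1 it was -1.70 (edgeR unadjusted p = 0.0082, adjusted 0.768). In severe retinas 0 members had an unadjusted p under 0.05, against 4.28% of genes. A trend over mild, moderate and severe as scores 0, 1 and 2 gave 0 members, against 1.85% of 13394 genes. By edgeR no gene passed at an adjusted p under 0.05 in any of these 4 comparisons, with 865 (mild, 5.42%), 1350 (moderate, 8.46%), 683 (severe) and 248 (trend) at an unadjusted p under 0.05. DESeq2 called 600, 296, 277 and 32 genes, with 1594, 1540, 1069 and 764 at an unadjusted p under 0.05.

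The moderate retinas also differed in their other RNA. Summed rod markers were 519 to 570 CPM in mild, 1908 to 5980 CPM in moderate and 845 to 1098 CPM in severe sums, so that moderate stood apart there too. The 8 microglia markers summed to 25723 to 37125 CPM in mild, 16456 to 26054 CPM in moderate and 32510 to 35667 CPM in severe sums. In moderate minus the mean of mild and severe, 7 of 14 rod markers were higher at an unadjusted edgeR p under 0.05 and 0 lower. Their median log2 difference was 2.72, and 5.29% of all genes were higher. Of the 8 microglia markers 5 were lower and 0 higher (median -0.64), against 2.36% of all genes lower. The 6 markers of monocytes and recruited macrophages summed to 309 to 754, 705 to 2337 and 474 to 681 CPM, and the 5 of border-associated macrophages to 2.91 to 4.96, 61.8 to 186 and 9.62 to 30.6 CPM, again in the order mild, moderate, severe. Neutrophil and lymphocyte markers were at 0 in all of them. Of the 6 markers of monocytes and recruited macrophages, Ly6c2 and Plac8 were at 0 in all 12-month DBA/2J animals. Only Ccr2 and Lyz2 of these had enough counts to be tested between the groups. Retina totals were 1706775 to 12499993 in mild, 4983389 to 15825483 in moderate and 9144746 to 20081114 in severe retinas. Of 10 immediate early genes, 6 were lower in moderate than in the mean of mild and severe retinas at an unadjusted p under 0.05, against 2.36% of genes lower (median log2 difference -0.81), and 10 were lower in moderate than in Gpnmb+, against 3.71% of genes (median -1.73). The part of photoreceptor RNA, of other macrophages, of stimulation or handling and of depth in the moderate values was not tested.

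Other genes around the pathway were read from lists chosen by function, with earlier results of these data known. Of 31 other glycolytic isozymes, transporters and regulators, 23 were tested between the groups and 0 had an unadjusted p under 0.05 in 12-month DBA/2J against Gpnmb+ (median log2 difference -0.068, 11 positive). Gpi1, which makes fructose-6-phosphate, averaged 166 ± 53.3 CPM in 12-month DBA/2J and 81.4 ± 54.9 CPM in Gpnmb+ animals (SD, n = 5 each), a log2 difference of 1.03 ± 0.68 with an edgeR p of 0.15. Ldhb, the lactate dehydrogenase subunit typical of heart, averaged 446 ± 175 and 343 ± 89.0 CPM in the same order. Hexokinase 1 (Hk1) was at 7.56 ± 5.95 CPM in 12-month DBA/2J and 32.8 ± 49.0 CPM in Gpnmb+ animals, and Pfkfb1 at 0.305 ± 0.683 and 7.37 ± 12.0 CPM, both with an SD above the mean in Gpnmb+ animals.

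Against 6-month DBA/2J, 1 of the 23 was higher at 12 months by an unadjusted p under 0.05, against 2.10% of all genes higher: the neuronal enolase Eno2, at 6.68 ± 5.33 CPM at 12 months and 0.205 ± 0.286 CPM at 6 months (edgeR p = 0.022, adjusted 1.00). Pfkfb3, which makes the activator of phosphofructokinase, averaged 79.1 ± 52.2 CPM at 12 months and 144 ± 23.3 CPM at 6 months, a log2 difference of -0.86 ± 0.45 (SE, p = 0.0743 unadjusted).

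Of 10 genes of the HIF machinery 6 were tested, and 0 had an unadjusted p under 0.05 in 12-month DBA/2J against Gpnmb+ or against 6-month DBA/2J (median log2 differences -0.21 and -0.62, with 2 and 0 of 6 positive). In 6-month DBA/2J against Gpnmb+ 1 of the 6 was higher at an unadjusted p under 0.05, against 2.20% of genes higher: Arnt, named after its value was seen, at 1.57 ± 0.61 (SE, edgeR p = 0.0188). Arnt, the partner of Hif1a, averaged 30.6 ± 14.0 CPM in 12-month DBA/2J, 67.9 ± 13.4 CPM in 6-month DBA/2J and 22.8 ± 20.6 CPM in Gpnmb+ animals. Egln2, a hydroxylase that marks Hif1a for destruction, averaged 33.7 ± 13.8, 53.6 ± 14.2 and 52.0 ± 37.9 CPM in the same order. Its relative Egln1 averaged 9.99 ± 3.91 CPM in 12-month DBA/2J and 12.1 ± 7.80 CPM in Gpnmb+ animals, and Cited2, which competes with Hif1a for its coactivator, 14.0 ± 4.85 and 24.4 ± 18.1 CPM. Of 19 other HIF targets 16 were tested and 0 had an unadjusted p under 0.05 in either comparison, with median log2 differences of 0.23 and 0.24. P4ha1, a collagen prolyl hydroxylase, averaged 141 ± 60.9 CPM in 12-month DBA/2J and 217 ± 159 CPM in Gpnmb+ animals, and the transferrin receptor Tfrc 4.19 ± 7.46 and 15.5 ± 15.03 CPM. Ndrg1 averaged 2.19 ± 3.08 CPM in 12-month DBA/2J and 0.352 ± 0.768 CPM in Gpnmb+ animals. Against 6-month DBA/2J, Higd1a was at 11.9 ± 4.36 CPM at 12 months and 5.69 ± 4.81 CPM at 6 months, and Ankrd37 at 2.83 ± 4.48 and 0.589 ± 1.23 CPM.

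For the fates of the products, 8 of 8 pentose phosphate genes were tested with 0 at an unadjusted p under 0.05 in both comparisons. G6pdx, the entry enzyme, averaged 58.6 ± 25.6 CPM in 12-month DBA/2J and 24.5 ± 26.2 CPM in Gpnmb+ animals, a log2 difference of 1.26 ± 0.91 (SE). Its next enzymes, Pgls at 66.4 ± 34.8 and 39.2 ± 18.5 CPM and Pgd at 165 ± 37.8 and 175 ± 44.8 CPM, and Rpe at 7.52 ± 7.34 and 14.9 ± 17.02 CPM overlapped between the same groups. H6pd averaged 11.3 ± 9.32 CPM at 12 months and 31.1 ± 17.96 CPM at 6 months in DBA/2J, and Rpia 7.96 ± 5.00 and 3.67 ± 2.78 CPM. Of 12 genes that pass pyruvate into mitochondria 11 were tested, and 1 was higher in 12-month DBA/2J at an unadjusted p under 0.05, against 2.76% of all genes higher: the pyruvate dehydrogenase phosphatase Pdp1, at 4.64 ± 9.71 CPM, with Gpnmb+ animals all at 0 (edgeR p = 0.00498, adjusted 0.574). The SD of Pdp1 is far above its mean, so the 12-month DBA/2J animals did not share this level. Mpc1, a subunit of the mitochondrial pyruvate carrier, averaged 63.6 ± 24.9 CPM in 12-month DBA/2J, 32.6 ± 11.2 CPM in 6-month DBA/2J and 32.4 ± 31.2 CPM in Gpnmb+ animals. Its partner Mpc2 was at 23.6 ± 11.3 CPM at 12 months and 13.6 ± 4.17 CPM at 6 months. The pyruvate dehydrogenase genes Pdhx and Pdhb averaged 25.1 ± 21.6 and 75.6 ± 63.5 CPM in 12-month DBA/2J, against 10.7 ± 7.39 and 40.7 ± 33.2 CPM in Gpnmb+ animals.

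Immediate early genes respond within minutes to stimulation and also to tissue dissociation, and what set their levels here was not tested. All 10 were tested and 9 were lower in 12-month DBA/2J than in Gpnmb+ at an unadjusted p under 0.05, against 2.45% of genes lower, with a median log2 difference of -1.18. Lower in 12-month than in 6-month DBA/2J were 4 of the 10, against 1.55% of genes, and in 6-month DBA/2J than in Gpnmb+ 2, against 1.57%. Jun averaged 2238 ± 499 CPM in 12-month DBA/2J and 5384 ± 2310 CPM in Gpnmb+ animals (log2 difference -1.27 ± 0.32, edgeR adjusted p = 0.434). Ier2 averaged 379 ± 169 and 1385 ± 909 CPM in the same order, Btg2 864 ± 260 and 1989 ± 751 CPM and Atf3 80.8 ± 50.8 and 486 ± 432 CPM. The part of this in the members' values was not tested.

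Promoters of all 10 members were matched by symbol in the RefSeq table (GRCm38.p6). The core letters of the hypoxia response element, ACGTG and GCGTG on either strand, were searched in the 250 bases before each start, where CACGTG counts as 2 overlapping matches. They occurred before 9 of the 10 members (90.0%, all but Tpi1), against 41.5% of 27025 genes and 62.0% of the 8908 tested genes found in the table. The windows of Ldha (chr7:46845723-46845802, plus strand) and Gapdh (chr6:125165781-125165860, minus strand) are shown as 2 of the 3 genes that stood apart by grade. For Eno1 the window with the most matches overlaps an annotated exon and is not shown. Capitals mark the matches, which are a description of letters and not of binding.

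Ldha promoter: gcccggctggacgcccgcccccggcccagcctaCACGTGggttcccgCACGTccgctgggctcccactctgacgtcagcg
Gapdh promoter: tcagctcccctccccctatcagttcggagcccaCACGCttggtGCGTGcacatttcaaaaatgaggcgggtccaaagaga

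The genes whose log2 CPM most resembled the enzymes over the 15 animals were sought among 4394 well-expressed genes, as a description without a test. For the mean of the 9 enzymes they were Gnb1 (Pearson r = 0.86), Mlf2 (0.79), Gxylt1 (0.78), Sf3a1 (0.78) and Csf2ra (0.78). For Hif1a they included Ndufs1 (0.86), Etv6 (0.81), Heatr5a (0.78) and Arhgap27 (0.78). The animals of these correlations differ in depth and in group, which the values share.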

How the data were processed

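For each retina the authors deposited expected counts and TPM by gene (per the file headers). Named without roles in the submitters' processing notes are Salmon 1.4.0, the build mm10, DESeq2 1.30.1 and R 4.0.3. How reads that match several genes were assigned is not given in the sources used here. A deposited series table with 24 columns of FPKM was not used. Of 47729 gene IDs, 47310 matched a symbol in the GRCm38 annotation (GENCODE), from which coordinates come.

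After rounding, the expected counts of an animal's eyes were added, or those of its eyes of 1 grade (17 sums, taken as independent). The test was edgeR's (version 4.0.16, R 4.3.3; quasi-likelihood F test, TMM scaling, filterByExpr with minimum count 10 and minimum total 15), and p-values were adjusted by Benjamini and Hochberg over all genes tested, at a threshold of 0.05. CPM per animal used TMM-scaled totals of the kept genes, and CPM per retina the library total. Deposited TPM were used only to compare genes. Standard errors are the log2 difference divided by the root of F. Pseudogenes were annotated pseudogenes matching a member's transcript with BLAST+ 2.17.0 at 80% identity or more, over 300 bases or 50% of the pseudogene. Coding copies needed 95%. Shares were tested by exact permutation in scipy 1.17.1. The scripts were tested on simulated counts.

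The 10 genes and all lists were chosen with earlier results of these data known. Named besides them were up to 4 list genes with the smallest p in 12-month DBA/2J against Gpnmb+, up to 2 in 12-month against 6-month DBA/2J, pseudogenes holding 1% or more of a family, and 5 genes per correlation pattern; some genes that these rules name are not reported here. The comparison of moderate with the mean of mild and severe retinas, and the addition of coding copies, were chosen after seeing the data. Alternatives were DESeq2 1.42.0, other scalings, filters and samples, pseudogene counts added, retinas with a random animal effect (limma 3.58.1) and leaving out each animal. Animal numbers were checked for pairing: of 15 pairs of groups and numbers, 0 correlated over 0.1, so they do not pair animals. Among 91 pairs of retinas of a group none agreed within sampling noise.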

Additional observations from a re-analysis of the deposited data

Results flagged for a closer look

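In 30 sets of 5 animals (10 genes in 3 groups), the highest and the lowest value were compared with their nearest neighbour by Dixon's ratio. Chance flags about 1 in 20 such sets. Aldoa in 12-month DBA/2J animal 1 was 388 CPM, and the next animal of the group had 295 CPM (ratio 0.816). Eno1 in Gpnmb+ animal 2 was 474 CPM, and the next animal had 171 CPM (ratio 0.714). The retinas of that Gpnmb+ animal held 3469 and 7134 genes with counts, and its summed rod markers were 9612 CPM, the highest of the 15 animals. The part of either in its Eno1 value was not tested.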

How the results depend on the processing

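At an adjusted p under 0.05 edgeR called 0 genes in all 8 comparisons. DESeq2 called 108 in 12-month DBA/2J minus Gpnmb+, 61 in 12-month minus 6-month, 57 in 6-month DBA/2J minus Gpnmb+, 600, 296 and 277 in mild, moderate and severe minus Gpnmb+, 404 in moderate minus the mean of mild and severe, and 32 in the trend. Retinas with a random animal effect gave 8, 5 and 40 in the 3 group comparisons, and no filter on low counts gave 2 in 12-month minus 6-month. Leaving out 1 animal gave 0 to 1 in 12-month DBA/2J minus Gpnmb+, 0 to 2 in mild, 0 to 4 in moderate and 0 to 1 in moderate minus the others. The animal number as a replicate block gave 4 in moderate and 1 in severe minus Gpnmb+, and in 12-month minus 6-month it turned Pfkl to -0.076. In moderate minus the mean of mild and severe the block left unadjusted edgeR p of 0.0238 for Gapdh, 0.0055 for Ldha and 0.0202 for Eno1, and gave 0.0876 for Aldoa and 0.158 for Pkm. Mice of all 3 groups with the same number share that block, so it is not an adjustment within animals. Of the 15 pairs of same-numbered animals 5 correlated best with their own number (r from -0.046 to 0.088).

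Of 893 alternative values of members printed in the text, 67 changed sign, over 21 of 51 results, and 3 passed the threshold under DESeq2 (Ldha in moderate minus Gpnmb+, Gapdh and Ldha in moderate minus the others). Of 357 alternative values of the 29 unprinted mild, severe and trend results, 55 changed sign, over 18 results. In log2 units, 12-month DBA/2J minus Gpnmb+ turned to -0.043 and -0.038 for Pkm and Hif1a under DESeq2 and to -0.044 and -0.040 under RLE scaling. Without the retinas under 10000 genes, which leaves 3 Gpnmb+ animals, it turned to 0.11 for Gapdh, 0.24 for Eno1, 0.32 for Tpi1 and 0.065 for Pfkl. With a random animal effect it was -0.0048 for Pkm, 0.083 for Tpi1 and 1.11 for Pfkl. In 12-month minus 6-month, Pgk1 turned to 0.059 without low-depth retinas, and with a random effect Hk2 was -0.089 and Pfkl -0.00089. In 6-month DBA/2J minus Gpnmb+, Tpi1 turned to -0.043 under DESeq2 and -0.044 under RLE scaling and Aldoa to 0.19 without the retinas under 10000 genes, and with a random effect Aldoa was 0.093, Pgk1 0.11 and Pfkl 1.11. In moderate minus Gpnmb+, DESeq2 and RLE scaling gave -0.050 for Pgk1 in both, and -0.013 and -0.015 for Hk2, and leaving out the retinas under 10000 genes gave 0.43 for Pfkl and 0.12 for Hif1a.

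Leaving out 1 animal moved 12-month DBA/2J minus Gpnmb+ between -0.26 and 0.17 for Gapdh, -0.010 and 0.44 for Aldoa, -0.14 and 0.19 for Pkm, -0.55 and 0.35 for Eno1, -0.40 and 0.20 for Tpi1, -0.95 and 0.15 for Pfkl, and -0.19 and 0.27 for Hif1a. In 12-month minus 6-month the ranges were -0.20 to 0.092 for Pgk1 and -0.0014 to 0.41 for Pfkl. In 6-month DBA/2J minus Gpnmb+ they were -0.33 to 0.12 for Aldoa, -0.10 to 0.52 for Tpi1, -0.075 to 0.39 for Hk2 and -1.10 to 0.0054 for Pfkl. In moderate minus Gpnmb+ they were -0.41 to 0.37 for Pgk1, -0.15 to 0.31 for Hk2, -0.61 to 0.52 for Pfkl and -0.41 to 0.24 for Hif1a, and in moderate minus the others -0.47 to 0.027 for Hk2 and -0.52 to 0.49 for Hif1a. Of 231 alternative pseudogene share differences 11 changed sign. In percentage points, Gapdh in 12-month DBA/2J minus Gpnmb+ turned to -0.219 without the retinas under 10000 genes. Leaving out 1 animal gave -1.41 to 2.5 for it, -3.15 to 0.449 for Gapdh in 6-month DBA/2J minus Gpnmb+, -0.0263 to 0.0297 for Aldoa in 12-month minus 6-month, and -1.10 to 0.0976 for Pkm and -1.77 to 2.38 for Eno1 in 12-month DBA/2J minus Gpnmb+. The causes of these moves were not tested.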
